A study of Mus musculus with 8 samples.

Results

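The genes described here are the Wnt ligands, the Frizzled receptors (Fzd) and the secreted Wnt antagonists of the Sfrp and Dkk families, compared between E-cadLO and E-cadHI tumor cells of brain tumors. Members were the protein-coding genes of the count table whose symbol is Wnt, Fzd, Sfrp or Dkk followed by a number. This gave 37 of the 31894 genes with an identifier, of which 19 are Wnt, 10 Fzd, 4 Sfrp and 4 Dkk genes. The labels describe the libraries as brain metastasis tumor of wild type FVB mice with breast cancer, sorted by E-cadherin status, and number the mice 57, 58, 67 and 70. Each mouse gave 1 E-cadHI and 1 E-cadLO library, so there are 8 libraries, 4 per group. By the study's methods, all tumors grew from PyMT mammary tumor cells, in which the MMTV promoter drives polyoma middle T, that expressed an E-cadherin-mCFP fusion (mCFP is a cyan fluorescent protein), carried the nuclear marker H2B-Dendra2 and were enriched for brain growth by repeated transplantation into the brain. Cells of both groups come from this 1 line, were injected into the brain rather than arriving there through the blood, and were separated by a gate on the fluorescence of the fusion protein. The purity of the sort was examined on E-cadHI cells, not on E-cadLO cells. Age is not given in the labels.

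Wnt proteins are lipid-modified secreted ligands that bind Frizzled receptors. Together with the co-receptors Lrp5 or Lrp6, binding protects beta-catenin from degradation, so that it enters the nucleus and activates TCF/LEF target genes. Binding to Frizzleds can also feed signals of cell polarity and movement that do not need beta-catenin. Sfrp proteins resemble the ligand-binding part of a Frizzled and bind Wnt outside the cell, whereas Dkk1, Dkk2 and Dkk4 bind Lrp5 and Lrp6. Dkk3 is a divergent member of its family that does not act through these co-receptors in the same way. In the mammary gland Wnt signals are known for their part in stem cells and ductal branching, and in the brain Wnt7a and Wnt7b are known for guiding the growth of vessels with a blood-brain barrier.

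Total counts ranged from 9102781 to 15769200 per library, and 3 counts, taken as the floor of detection, correspond to 0.190 to 0.330 CPM, the counts scaled to a common library total. These floors cover counting error only. Cdh1, the E-cadherin gene whose protein the gate used, was at 114, 132, 93.5 and 108 normalized CPM in the E-cadHI libraries of mice 57, 58, 67 and 70 and at 71.6, 181, 84.5 and 59.2 in their E-cadLO libraries. Its mRNA was lower in the E-cadLO library in mice 57, 67 and 70 and higher in mouse 58, and the groups overlapped (log2 fold change -0.17, adjusted p = 0.809, edgeR's quasi-likelihood test). The sort was on protein, and the part of mRNA in it was not tested. Of 12 tumor epithelium markers, such as Epcam and Krt8, all were detected in every library, with a summed level of 7713 to 10465 CPM in E-cadHI and 5788 to 14613 CPM in E-cadLO. The 12 microglia and macrophage markers summed to 17.3 to 225 CPM in E-cadHI and 187 to 835 CPM in E-cadLO, and were higher in E-cadLO in 4 of 4 mice. The summed oligodendrocyte lineage, neuron, endothelial, and fibroblast and mural markers were also higher in E-cadLO in 4 of 4 mice, and the astrocyte markers in 3. The exception was mouse 57, with an astrocyte sum of 1204 CPM in E-cadHI and 775 CPM in E-cadLO. Aldoc alone was at 1005 and 124 CPM there. In that mouse Aqp4, Gjb6 and Sox9 were also lower in E-cadLO, and the other astrocyte markers were higher. The E-cadLO library of mouse 57 stood apart in the sum of 12 fibroblast and mural cell markers, with 1193 CPM against 9.51 to 185 CPM in the other 7 libraries. Of these 12 genes, 2 had 0 reads in that library. Over all mice 7 of the 12 could be tested, with 6 log2 fold changes above 0 and 1 below. The E-cadLO library of mouse 70 stood apart in the sum of 12 oligodendrocyte lineage markers, with 34528 CPM against 608 to 8693 CPM elsewhere. Of this sum, Mbp was 20113 CPM and Mobp 11676.5 CPM. Not every marker of the list went this way. Sox10 was at 38.2 CPM there against 26.5 to 82.0 elsewhere. It was lower in E-cadLO in 4 of 4 mice, and Cnp in 3. The same library also led in the sums of 12 astrocyte markers (10778 CPM against 775 to 3848) and of 12 neuron markers (666 CPM against 35.8 to 316). In such bulk samples, fewer cells of a type and less RNA per cell cannot be told apart.

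**Figure D1:**
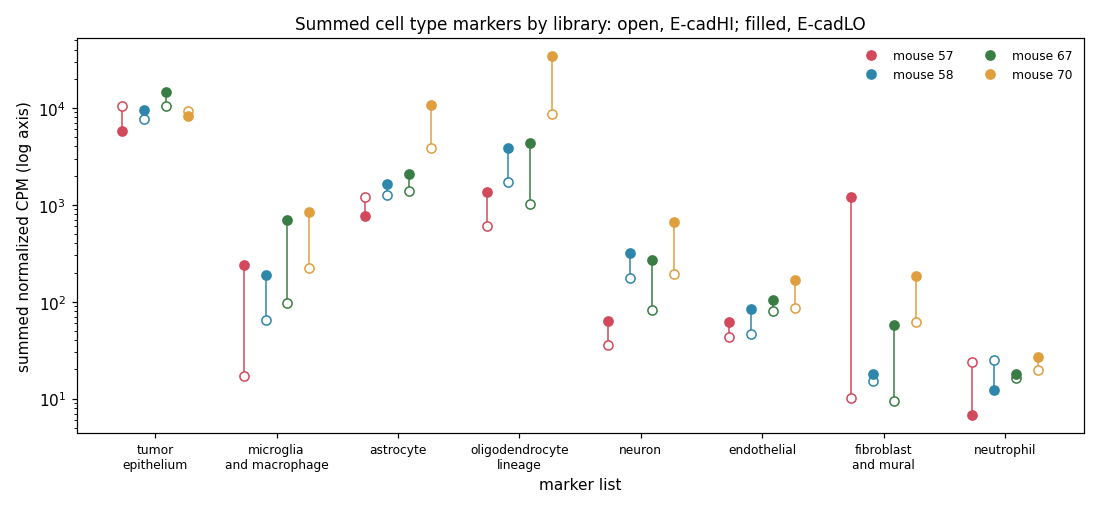
Summed normalized CPM (log axis) of 8 cell type marker lists in each library, with open points for E-cadHI, filled points for E-cadLO, 1 color per mouse and a line joining the libraries of a mouse. The E-cadLO library of mouse 57 reaches 1193 CPM in fibroblast and mural markers, and that of mouse 70 reaches 34528 CPM in oligodendrocyte lineage markers.

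Of the 37 members, 14 passed the filter on low counts and were tested among 13598 genes. These were Wnt5a, Wnt5b, Wnt7a, Wnt7b and Wnt10a, Fzd1 to Fzd7, Sfrp1 and Dkk3. Of the 23 others, 9 stayed under 10 counts in every library. No member passed an adjusted p under 0.05 in either direction with edgeR without the mouse as a block, where 0.0% of all genes tested passed in either direction. With the mouse as a replicate block no member passed either, against 0.728% of all genes higher in E-cadLO and 0.0% lower. At an unadjusted p under 0.05 without the block, Dkk3 and Wnt10a were higher in E-cadLO and Sfrp1 lower, which is 2 and 1 of the 14, against 8.16% and 5.81% of all genes. The same threshold with the block gave Dkk3 and Wnt7a on the higher side and Sfrp1 on the lower, against 12.3% and 7.33% of all genes. DESeq2 without the block called 0 members in either direction, against 2.15% of all genes higher and 0.412% lower, and DESeq2 with the block called Dkk3 higher and Sfrp1 lower, against 7.57% and 1.63% of all genes.

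In direction alone, Dkk3 and Wnt7a were higher in E-cadLO in 4 of 4 mice, as were 16.8% of all genes tested. Wnt7a reached 10 reads in every E-cadLO library, but in E-cadHI only in mice 58 and 70. It thus passed the low-count filter through its E-cadLO libraries, and its direction is not independent of that filter. Sfrp1 was lower in 4 of 4 mice, as were 14.2% of all genes. The other 11 tested members changed sign between mice. The median log2 fold change of the 14 was -0.02, beside 0.06 over all genes tested, and within mice 57, 58, 67 and 70 the median log2 ratio was 0.45, 0.13, -0.39 and -0.35, beside 0.02, 0.00, 0.02 and 0.07 over all genes. The members therefore did not lean to 1 side in all mice.

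**Figure D2:**
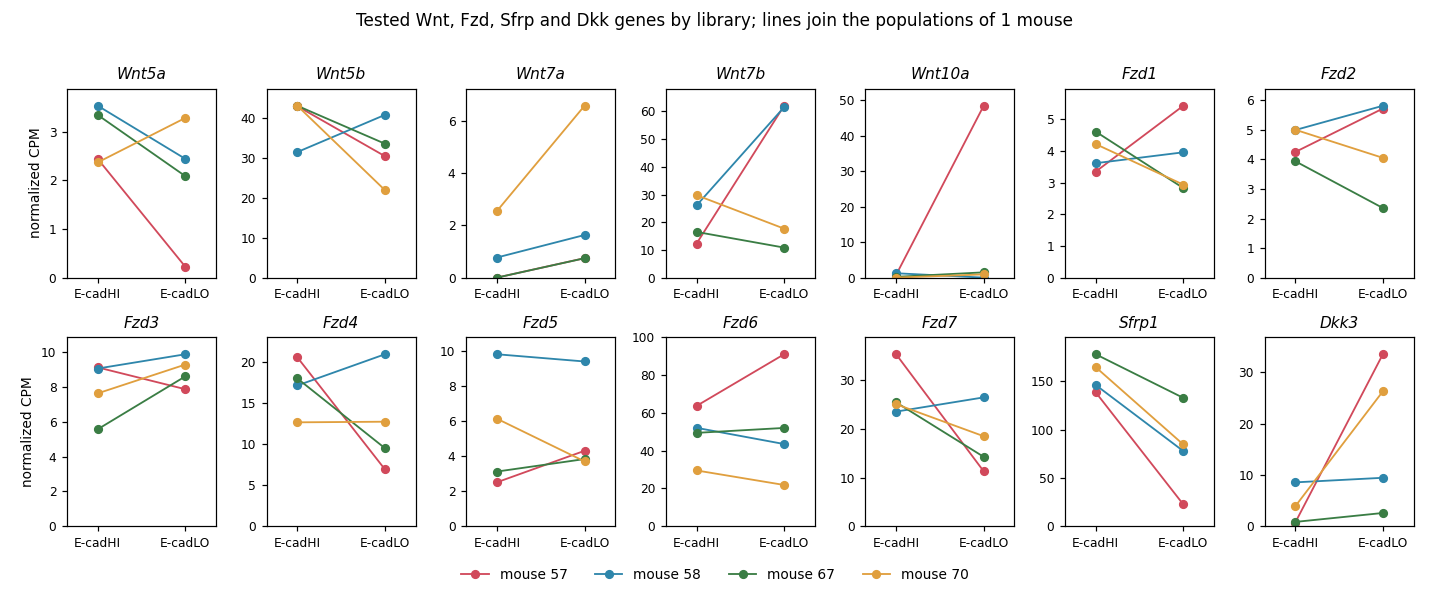
Normalized CPM (vertical axis, linear from 0, its range differing between panels) of the 14 tested members in E-cadHI and E-cadLO, with a line for each of the 4 mice. All 4 Sfrp1 lines go down and all 4 Dkk3 and Wnt7a lines go up, whereas the lines of the other genes cross.

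Sfrp1, which encodes an antagonist that binds Wnt ligands, lies on chromosome 8 (GRCm38, 23411502 to 23449632). Its normalized level was 139, 146, 178 and 165 CPM in the E-cadHI libraries of mice 57, 58, 67 and 70, and 22.5, 77.8, 133 and 84.6 CPM in the E-cadLO libraries. Every E-cadLO library was below every E-cadHI library, so the groups did not overlap, and this held for 1 of the 14 tested members on the lower side, against 4.2% of all genes, and for 0 on the higher side, against 3.9%. The mean was 157 ± 17.9 CPM in E-cadHI and 79.5 ± 45.2 CPM in E-cadLO (SD, n = 4 libraries). The log2 ratio within a mouse was -2.60, -0.91, -0.42 and -0.96, with mouse 57 far below the others. The fitted log2 fold change was -0.98 (standard error 0.42, Benjamini-Hochberg adjusted p = 0.345, edgeR's quasi-likelihood test). With the replicate block it was -1.20 (standard error 0.34, adjusted p = 0.152). Without mouse 57, and with the block, Sfrp1 passed the threshold at a smaller change, -0.79 (standard error 0.17, adjusted p = 0.0368, edgeR), where 0.173% of all genes passed on the lower side and 3.06% on the higher. With mouse 58, 67 or 70 left out instead, it did not pass (adjusted p = 0.189, 0.436 and 0.300, edgeR with the block). On all mice, DESeq2 with the block called it lower (log2 fold change -1.18, adjusted p = 0.00849), whereas DESeq2 without the block did not (adjusted p = 0.171).

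Beside Sfrp1, the summed tumor epithelium markers had log2 ratios of E-cadLO to E-cadHI of -0.85, 0.31, 0.50 and -0.17 in mice 57, 58, 67 and 70. The keratin genes Krt8 and Krt18 made up the largest part of that sum, and both were higher in E-cadLO in 2 mice and lower in 2. Of the 12 markers, 7 had a log2 fold change below 0 and 5 above. Of the 12, 1 was lower and 1 higher in E-cadLO in 4 of 4 mice. Epcam, an epithelial adhesion molecule, was lower, with log2 ratios of -2.21, -0.04, -0.64 and -0.73. Elf3 was higher, with 0.07, 0.41, 0.40 and 0.24. The part of these markers in the Sfrp1 values was not tested. Per length of the gene's exons, Sfrp1 had the highest level of the 37 members in both groups, with 35.9 CPM per kilobase in E-cadHI and 18.2 in E-cadLO. It took 41.0% to 50.1% of the normalized counts of all members in E-cadHI libraries, but in the E-cadLO library of mouse 57 Fzd6 led instead, with 22.7%.

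Dkk3, the divergent Dickkopf member, lies on chromosome 7 (112116017 to 112159057). Its normalized level was 0.697, 8.53, 0.818 and 3.86 CPM in the E-cadHI libraries of mice 57, 58, 67 and 70, and 33.5, 9.42, 2.56 and 26.3 CPM in the E-cadLO libraries. It was higher in E-cadLO within every mouse, by little in mouse 58, and the groups overlapped because the E-cadHI library of mouse 58 was above the E-cadLO library of mouse 67. The log2 ratios within mice were 4.83, 0.14, 1.21 and 2.62. The log2 fold change was 2.37 (standard error 0.96, adjusted p = 0.330, edgeR) and 2.42 with the replicate block (standard error 0.84, adjusted p = 0.199). DESeq2 with the block called it higher (2.44, adjusted p = 0.00870) and DESeq2 without the block did not (adjusted p = 0.0952).

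The size of the Dkk3 difference rested in part on mouse 57. Without that mouse its log2 fold change was 1.48 with the block (standard error 0.52, adjusted p = 0.180, edgeR). The libraries with the highest Dkk3, the E-cadLO libraries of mice 57 and 70, were also the highest in summed fibroblast and mural markers, at 1193 and 185 CPM. The second of these led in the sums of oligodendrocyte lineage, astrocyte and neuron markers. Both libraries of mouse 58 had more Dkk3 than the E-cadLO library of mouse 67 and the E-cadHI library of mouse 70. Their summed fibroblast and mural markers were lower (15.1 and 18 CPM against 57.1 and 62.1). The log2 ratio of those markers was 6.86, 0.25, 2.59 and 1.57 in mice 57, 58, 67 and 70. It was largest in mouse 57 and smallest in mouse 58, as was the Dkk3 ratio. The part of these markers in the Dkk3 values was not tested. Of the 12 fibroblast and mural markers, 6 were at 0 in at least 1 library, among them Pdgfrb, which marks pericytes.

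Of the tested ligands, Wnt7a, a ligand of brain and endothelial signaling on chromosome 6 (91363981 to 91411363), was at 0, 0.768, 0 and 2.55 CPM in E-cadHI and at 0.743, 1.63, 0.740 and 6.57 CPM in E-cadLO. It was higher in E-cadLO in every mouse, and the groups overlapped since E-cadHI of mouse 70 exceeded E-cadLO of the other mice. Behind these values stood 0, 10, 0 and 29 reads in E-cadHI and 10, 14, 11 and 94 reads in E-cadLO. The log2 ratios of CPM plus 0.5 were 1.31, 0.75, 1.31 and 1.21, the narrowest spread among the members with 1 direction (SD 0.27, n = 4 mice). In mice 57 and 67 the E-cadHI library held 0 reads, so these ratios depend on the added 0.5. The low-count filter was met through E-cadLO, the group with the higher values. The log2 fold change was 1.56 (standard error 1.37, adjusted p = 0.581, edgeR) and 2.31 with the block (standard error 0.91, adjusted p = 0.228). The summed neuron, astrocyte and oligodendrocyte lineage markers were likewise highest in the E-cadLO library of mouse 70, which held the most Wnt7a. The part of these markers in the Wnt7a values was not tested.

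Of the 3 members with 1 direction in all mice and a mean of at least 1 CPM (Sfrp1, Dkk3 and Wnt7a), the RefSeq promoter table (GRCm38.p6) held Wnt7a, and its promoter is shown as the sequence next to the start of a gene whose populations differed the same way in every mouse. The 240 bases before the start lie at chr6:91411364-91411603 on the minus strand. Capitals mark matches to GGGCGG or its reverse complement CCGCCC, the GC box bound by Sp1-type factors.
Wnt7a promoter: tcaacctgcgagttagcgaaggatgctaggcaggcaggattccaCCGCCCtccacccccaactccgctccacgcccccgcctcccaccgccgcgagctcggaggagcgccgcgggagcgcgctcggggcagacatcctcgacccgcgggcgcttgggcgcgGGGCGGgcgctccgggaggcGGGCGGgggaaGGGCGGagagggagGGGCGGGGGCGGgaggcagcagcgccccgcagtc
The GC box was chosen after this sequence was seen. The promoter holds 6 such matches, and 31.3% of all promoters in the table had at least 1 in the same window. How many held 6 was not counted. Its GC content is 77.1%, against a median of 52.1% over all promoters, and it holds 32 CpG dinucleotides. On either strand, neither CAGGTG, an E-box that Snai and Zeb repressors can bind, nor TCAAAG, the core of a TCF/LEF site, occurs in it. Promoters were found for 25 of the 37 members, as 28 sequences. These were searched over their whole length in the promoter table, not only over 240 bases. The E-box word occurred in 9 of these 28 (32.1%), against 20.2% of all 32851 promoters, and the TCF/LEF word in 4 (14.3%), against 16%. A match is a run of letters and not a measured binding site.

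Wnt7b, the close relative of Wnt7a, was at 12.3, 26.0, 16.5 and 29.8 CPM in E-cadHI and at 62.0, 61.5, 10.8 and 17.7 CPM in E-cadLO. The E-cadLO library had more of it in mice 57 and 58, and less in mice 67 and 70, so the mice split evenly. Its log2 fold change was 0.85 (standard error 0.56, adjusted p = 0.487, edgeR), and 0.55 with the block (standard error 0.53, adjusted p = 0.585). Without mouse 57 it was 0.30 without the block and -0.06 with it. An antisense gene overlaps Wnt7b, and whether counting used strand is not stated, but that gene held 0 to 5 reads per library. Wnt7b led the Wnt family in the E-cadLO libraries of mice 57 and 58, with 39.7% and 55.4% of its normalized counts, whereas Wnt5b led in the other 6 libraries.

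Wnt10a, a ligand of the beta-catenin branch in epithelia and skin appendages, was at 0.767, 1.23, 0.223 and 0 CPM in E-cadHI and at 48.4, 0, 1.48 and 0.909 CPM in E-cadLO. Nearly all of its signal came from 1 library, with 652 reads in the E-cadLO library of mouse 57 and 0 to 22 in the others. Its log2 fold change was 4.48 (standard error 1.81, adjusted p = 0.330, edgeR) and became 0.71 without mouse 57. That library is the one in which the sum of fibroblast and mural markers stood apart, and their part in the Wnt10a value was not tested.

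The remaining Wnt ligands tested are known mainly for beta-catenin-independent signaling. Wnt5b was at 43.0, 31.5, 43.1 and 43.1 CPM in E-cadHI and at 30.5, 40.8, 33.6 and 21.9 CPM in E-cadLO. It was lower in E-cadLO in mice 57, 67 and 70, higher in mouse 58, and the groups overlapped (log2 fold change -0.34, standard error 0.22, adjusted p = 0.481, edgeR). Per exon length Wnt5b was the leading Wnt ligand in both groups, with 15.1 CPM per kilobase in E-cadHI and 11.9 in E-cadLO. Wnt5a was at 2.44, 3.53, 3.34 and 2.37 CPM in E-cadHI and at 0.223, 2.44, 2.09 and 3.28 CPM in E-cadLO. It was lower in E-cadLO in mice 57, 58 and 67 and higher in mouse 70 (log2 fold change -0.54, standard error 0.68, adjusted p = 0.705, edgeR).

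**Figure D3:**
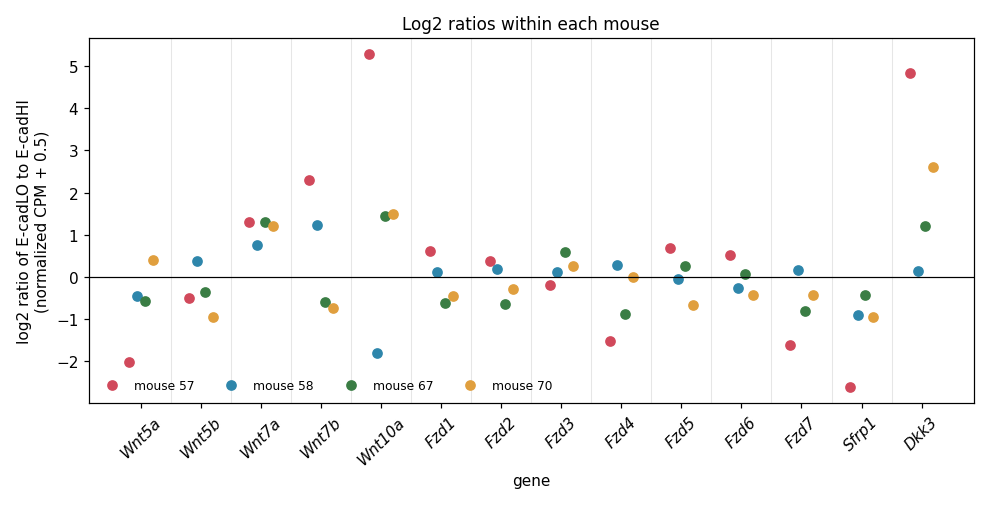
Log2 ratio of E-cadLO to E-cadHI within each mouse (normalized CPM plus 0.5, vertical axis) for the 14 tested members, 1 point per mouse. The points of mouse 57 for Wnt10a (5.27), Dkk3 (4.83), Sfrp1 (-2.60), Wnt7b (2.29) and Wnt5a (-2.02) are each the farthest from 0 of the gene's 4, and no Frizzled has all 4 points on 1 side.

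Of the Frizzled receptors, Fzd1 to Fzd7 were tested, and each changed sign between mice. Their median log2 fold change was -0.03. Fzd6, a receptor of planar polarity signaling, was the most abundant Frizzled per exon length, with 10.1 CPM per kilobase in E-cadHI and 10.8 in E-cadLO. It was at 63.7, 52.1, 49.4 and 29.5 CPM in E-cadHI and at 91.1, 43.5, 52.0 and 21.8 CPM in E-cadLO. The libraries of 1 mouse resembled each other, with mouse 57 highest and mouse 70 lowest in both groups, and the populations differed little (log2 fold change 0.10, standard error 0.40, and -0.02, standard error 0.20, with the block).

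Fzd7, a receptor used by epithelial stem cells, was at 35.4, 23.6, 25.5 and 25.1 CPM in E-cadHI and at 11.3, 26.5, 14.3 and 18.5 CPM in E-cadLO. It was lower in E-cadLO in mice 57, 67 and 70 but not in mouse 58, whose E-cadLO library overlapped the E-cadHI libraries. The log2 fold change was -0.64 (standard error 0.29, adjusted p = 0.367, edgeR) and -0.69 with the block (standard error 0.31, adjusted p = 0.270). Fzd4, which is also the receptor of Norrin in vessels, was at 20.6, 17.1, 18 and 12.6 CPM in E-cadHI and at 6.91, 20.9, 9.49 and 12.7 CPM in E-cadLO. Its E-cadLO libraries of mice 57 and 67 were below all E-cadHI libraries, and those of mice 58 and 70 were not (log2 fold change -0.45, standard error 0.36, adjusted p = 0.544, edgeR).

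The other Frizzleds were low, between 2.36 and 9.89 CPM in every library. Fzd1 was at 3.35 to 4.61 CPM in E-cadHI and 2.83 to 5.42 CPM in E-cadLO, and Fzd2 at 3.94 to 5 and 2.36 to 5.82 CPM. Fzd3, a receptor of axon guidance and planar polarity, was at 5.57 to 9.13 CPM in E-cadHI and 7.88 to 9.89 CPM in E-cadLO. Fzd5 was at 2.51 to 9.84 and 3.70 to 9.42 CPM, with both libraries of mouse 58 highest in their group. The log2 fold changes of these genes lay between -0.06 and 0.18, with adjusted p from 0.769 to 0.985 (edgeR). A difference of this size is within their standard errors, which were 0.29 to 0.55. Of the 65-base windows of Fzd5 transcripts, 16% also occur in another annotated gene, so its counts may share reads, whereas Sfrp1, Dkk3, Wnt7a, Wnt5b and Wnt10a had no such window.

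**Figure D4:**
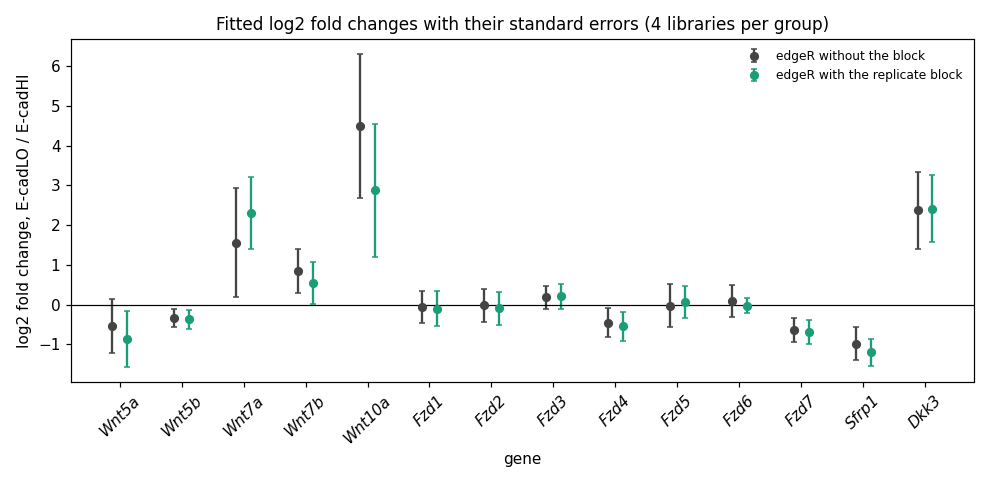
Fitted log2 fold change of E-cadLO against E-cadHI (vertical axis) with its standard error for the 14 tested members, from edgeR without the replicate block (dark) and with it (green), 4 libraries per group. Wnt10a has the largest change and the widest error (4.48, standard error 1.81), and the Frizzleds lie between -0.69 and 0.20 in both fits.

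The 23 members that failed the filter were not silent everywhere. Of these, 14 reached at least 10 reads in a library, and in 12 of them the library with the most reads was the E-cadLO library of mouse 57 (7 genes) or of mouse 70 (5 genes). By normalized CPM the E-cadLO library of mouse 57 led for 6, since Fzd8 was then highest in the E-cadLO library of mouse 58. How often each library leads over all genes was not counted, so these numbers have no background share beside them. Dkk2, an Lrp5 and Lrp6 binding antagonist, had 676 reads in the E-cadLO library of mouse 57 and 0 to 7 in the others. In the same library Wnt9a had 86 reads, Wnt11 59, Sfrp2 49, Wnt4 28, Fzd8 18 and Wnt8a 15, against at most 18, 1, 10, 12, 14 and 1 in the other 7 libraries. Sfrp2 is known as an antagonist made by fibroblasts, and Wnt9a and Wnt11 as ligands of the developing skeleton and of cell movement. This library is the one with a sum of 1193 CPM of fibroblast and mural markers, and the part of these markers was not tested.

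The E-cadLO library of mouse 70 held another group of low genes. Wnt3, a ligand of the beta-catenin branch, had 53 reads there and 0 to 8 in the others, and Sfrp5, Fzd9, Wnt8b and Sfrp4 had 26, 19, 16 and 10 reads. Sfrp5 was also above the floor in the E-cadHI library of the same mouse, with 13 reads. This library led in the sums of oligodendrocyte lineage, astrocyte and neuron markers, and their part was not tested. Wnt2b was highest in the E-cadHI library of mouse 58, with 22 reads, and Wnt9b in the E-cadLO library of that mouse, with 10 reads. The 9 members under 10 reads in every library were Dkk1, Dkk4, Fzd10, Wnt1, Wnt2, Wnt3a, Wnt6, Wnt10b and Wnt16, and at this depth no difference between the groups was detectable for them. Among the 28 members with at least 10 reads somewhere, tested or not, the E-cadLO library of mouse 57 had the highest normalized CPM for 11 and that of mouse 70 for 6. By reads, which are not scaled to depth, these numbers were 13 and 8. Without the matching shares over all genes, which were not counted, they cannot be read as particular to the members.

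**Figure D5:**
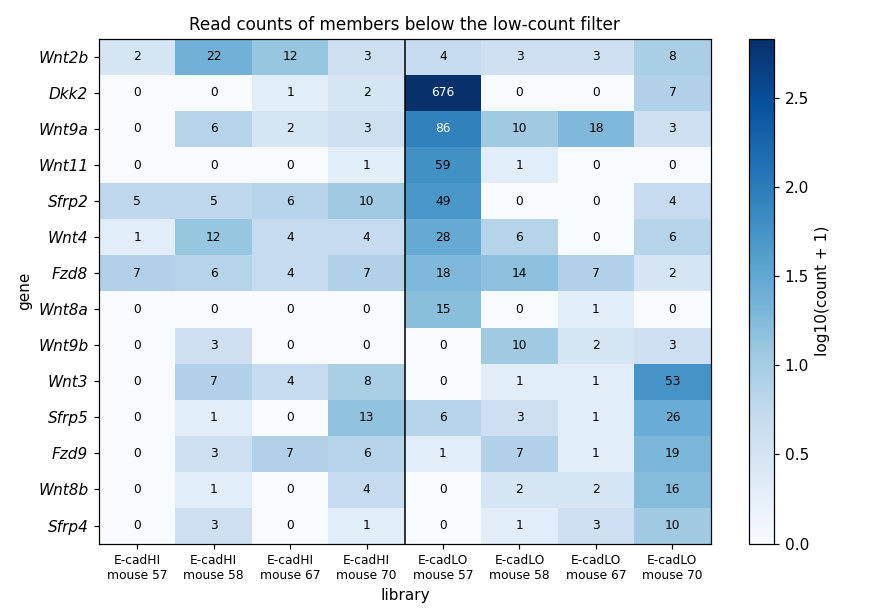
Read counts, printed in each cell and colored as log10(count + 1), of the 14 members that failed the low-count filter but reached 10 reads in a library (rows) in each of the 8 libraries (columns, E-cadHI left of the line). Counts concentrate in the E-cadLO libraries of mouse 57, with Dkk2 at 676, and of mouse 70, with Wnt3 at 53.

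Across the 4 families, the normalized sum of the 37 members was 338 to 356 CPM in E-cadHI and 246 to 401 CPM in E-cadLO. The Sfrp share of this sum was 41.1% to 50.2% in E-cadHI libraries, and 6.64%, 24.3%, 47.4% and 35.5% in the E-cadLO libraries of mice 57, 58, 67 and 70. The Dkk share was 0.206% to 2.56% in E-cadHI and 0.910% to 20.9% in E-cadLO, highest in mouse 57, where Dkk2 made up 59.98% of it. The Wnt share was 17.5% to 23.4% in E-cadHI, 39.0% and 34.5% in the E-cadLO libraries of mice 57 and 58, and 18.3% and 23.1% in those of mice 67 and 70. The Frizzled share overlapped between the groups, with 26.8% to 41.2% in E-cadHI and 30.5% to 38.2% in E-cadLO.

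The other genes of the pathway were read from 7 lists. Of their 61 tested genes, 35 had a log2 fold change above 0 and 26 below, with a median of 0.10, beside 0.06 over all genes. None passed an adjusted p under 0.05 with edgeR, with or without the block, in either direction. At an unadjusted p under 0.05, 4 were higher and 3 lower without the block, and 3 higher and 8 lower with it, where the shares over all genes were 8.16% and 5.81% without the block and 12.3% and 7.33% with it. In direction, 8 were higher and 11 lower in E-cadLO in 4 of 4 mice, against 16.8% and 14.2% of all genes. DESeq2 with the block called Gpc6 higher (adjusted p = 0.0338) and Tcf7l2 lower (adjusted p = 0.0456), of which Tcf7l2, a TCF factor that partners beta-catenin, is named after its value was seen. Over all genes the same fit called 7.57% higher and 1.63% lower, so 1 of 61 in each direction is below the first share and near the second.

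Among receptors and their regulators, Lgr4, a receptor of R-spondins that raises Wnt sensitivity, was at 128, 125, 182 and 191 CPM in E-cadHI and at 93.5, 84.0, 151 and 111 CPM in E-cadLO. It was lower in E-cadLO in every mouse, and the groups overlapped (log2 fold change with the block -0.52, standard error 0.15, adjusted p = 0.165, edgeR). Rnf43, a ligase that removes Frizzleds from the membrane, was also lower in 4 of 4 mice (-0.64 with the block, adjusted p = 0.214), as was the co-receptor Lrp5 (-0.78, adjusted p = 0.335). Ctnnb1, which encodes beta-catenin, was at 306, 274, 291 and 322 CPM in E-cadHI and at 122, 258, 200 and 261 CPM in E-cadLO. Each E-cadLO library was below each E-cadHI library, as for 4.2% of all genes (-0.56 with the block, standard error 0.23, adjusted p = 0.234).

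In the secretion list, Porcn, the enzyme that lipidates Wnt, was at 3.07, 4.84, 3.79 and 4.21 CPM in E-cadHI and at 13.3, 6.75, 5.86 and 5.52 CPM in E-cadLO. Its groups did not overlap, as for 3.9% of all genes in this direction, and its log2 fold change with the block was 0.89 (adjusted p = 0.295, edgeR). Gpc6, a membrane glypican, was higher in 4 of 4 mice (1.73 with the block, adjusted p = 0.201), with 36.6 CPM in the E-cadLO library of mouse 57 and 0.890 to 10.9 CPM in the others. Tmed2, a cargo protein of the secretory route, was lower in 4 of 4 mice (-0.40, adjusted p = 0.303).

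Among TCF/LEF targets, those lower in 4 of 4 mice were Ccnd1, which encodes the cell cycle regulator cyclin D1 (-0.40 with the block, adjusted p = 0.227, edgeR), and Id2, an inhibitor of helix-loop-helix factors (-0.84, adjusted p = 0.247). Myc was higher in 4 of 4 mice (0.33, adjusted p = 0.268). Axin2, named outside the rule for pathway genes and after its values were seen, is the target most used as a readout of the beta-catenin branch. It failed the filter, with 0 to 1.14 CPM in E-cadHI and 5.35, 0.699, 0.538 and 0.769 CPM in E-cadLO. In the core list, Apc2 and Pygo1 were higher in 4 of 4 mice (1.36 and 2.33 with the block, adjusted p = 0.231 and 0.304). Of the planar polarity genes, Celsr2 and Vangl1 were lower (-0.54 and -0.30, adjusted p = 0.198 and 0.361) and Scrib higher (0.56, adjusted p = 0.292) in 4 of 4 mice. The groups of members and pathway genes thus held values in both directions, none of them past the threshold in the edgeR fits over all 4 mice.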

How the data were processed

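The authors sequenced mRNA libraries as 65-base single reads and mapped them to GRCm38 with Hisat 2.1.0. They deposited counts per gene, unnormalized, made with Icount by the study's methods or HTSeq by the submitters' processing notes. Use of strand and treatment of reads matching several genes are not given in the sources used here. The 365 entries without a gene identifier (at most 0.0954% of a library) were left out. Members and gene lists were chosen with earlier results of these data known.

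Counts were TMM-normalized, filtered with filterByExpr by group and compared with the quasi-likelihood test of edgeR 4.0.16 (R 4.3.3), with Benjamini-Hochberg adjustment over 13598 genes and a threshold of 0.05. Log2 ratios within a mouse used normalized CPM plus 0.5. An exact sign-flip test over 4 mice cannot go below p = 0.125 and was not used. The mouse numbers in the titles pair the libraries: deviations from the group means correlated at 0.248 to 0.692 within a mouse and at most 0.144 between mice. DESeq2 1.42.0 and other settings were alternatives. Every tested member is named. Untested members are given by counts, individually where a library reached 10. From each pathway list at most 3 genes are named, those with the largest log2 fold change with the block and 1 sign in 4 mice. Tcf7l2 and Axin2 are named outside this rule. Levels per kilobase used GENCODE M21 exon lengths. Each tumor is 1 animal of 1 cell line. P-values without the block therefore rest on the spread of levels between these animals and leave the pairing unused. Those with the block rest on how far the difference within a mouse varied between them. No 2 libraries were alike within sampling noise.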

Additional observations from a re-analysis of the deposited data

Results flagged for a closer look

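Within each group of 4 libraries, the gap between the highest or lowest library and its neighbor was set against the group's range (Dixon's test). Of 70 groups of member values, 14 were flagged. For normally distributed values about 1 in 20, or 3.5, would be flagged, but some groups here are at or near 0 reads. Where 3 libraries hold 0 reads, as for Wnt11 and Wnt9b in E-cadHI, the gap equals the range and the flag is forced. The 2 numbers therefore cannot be compared directly. The E-cadLO library of mouse 57 stood far above the other 3 in normalized CPM for Dkk2 (50.2), Wnt10a (48.4), Wnt9a (6.39), Wnt11 (4.38), Sfrp2 (3.64) and Wnt8a (1.11), and the E-cadHI library of that mouse for Fzd7 (35.4). The E-cadLO library of mouse 70 stood apart for Wnt7a (6.57 CPM) and Wnt3 (3.70 CPM), and the E-cadHI library of that mouse for Sfrp5 (1.14 CPM) and Wnt11 (0.0878 CPM, 1 read). In mouse 58, Fzd5 was high in E-cadLO (9.42 CPM), Wnt5b low in E-cadHI (31.5 CPM) and Wnt9b high in E-cadHI (0.231 CPM, 3 reads).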

How the results depend on the processing

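Calls of all genes depended on tool and block, with 0 higher and 0 lower in E-cadLO in edgeR without the block. The higher counts were 292 with DESeq2, 23 with no filter, 3 with at least 10 counts in every library, 99 with the replicate block, which uses the pairing by mouse, and 1029 with DESeq2 and the block. The lower counts were 56 with DESeq2 and 222 with DESeq2 and the block. With 1 mouse left out, with or without the block, they ranged from 0 to 425 higher and 0 to 24 lower. For members, DESeq2 with the replicate block called 1 higher (Dkk3) and 1 lower (Sfrp1), and leaving out a mouse gave 0 to 1 lower. For pathway lists DESeq2 with the block called 1 in each direction. The members' median log2 fold change moved from -0.02 to 0.78 with no filter, which adds low genes, and lay between -0.23 and 0.16 with a mouse left out. Members lower in every mouse numbered 1 to 3 with a mouse left out. Directions turned for Frizzleds near 0: Fzd2 (0.0037 with DESeq2, 0.0076 with its size factors, 0.015 with at least 10 counts), Fzd5 (0.067 with the block, 0.087 with DESeq2 and the block) and Fzd6 (-0.023 with the block). With a mouse left out the log2 fold change ranged from -0.39 to 0.17 for Fzd1, -0.29 to 0.15 for Fzd2, -0.19 to 0.34 for Fzd5, -0.23 to 0.23 for Fzd6 and -0.064 to 1.31 for Wnt7b. Sfrp1 (-1.47 to -0.75), Dkk3 (1.48 to 3.58) and Wnt7a (1.41 to 3.09) kept their sign in every setting that tested them. So did Fzd3, Fzd4, Fzd7, Wnt5a, Wnt5b and Wnt10a, although these changed sign between mice. Since Sfrp1, Dkk3 and Wnt7a had 1 sign in every mouse, leaving out a mouse could hardly turn theirs. Their kept sign is therefore no separate evidence. Wnt5a, Wnt7a and Wnt10a could not be tested with at least 10 counts in every library. The cause of these differences was not tested. The pseudocount cannot change a count of directions, since adding the same value to both libraries keeps their order. Low counts limit the members under 10 reads.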
